A study of Caenorhabditis elegans with 4 samples.

Results

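The TIAR family of *C. elegans* was followed in whole embryos with and without *meg-1* and *meg-2*. Its members were the 3 genes that the deposited table names *tiar-1*, *tiar-2* and *tiar-3*, out of 42048 genes. The family was chosen by a measured value, the mean level of *tiar-2*, which was about 5 times lower without *meg-1* and *meg-2*, so the difference between genotypes at these genes is described here and is not tested. Wild-type embryos came from N2 worms on bacteria with the empty RNAi vector L4440. The *meg-1 meg-2* embryos, called mutant below, came from *meg-1(vr10)* worms on *meg-2* RNAi bacteria, so that *meg-2* was depleted and not deleted. Each genotype had 2 RNA-seq libraries, each from its own plating of synchronized worms, and the embryos were released from adults by bleaching. The methods of the study describe embryos from such large cultures as early, and the sample labels give no stage.

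TIA-1 and TIAR are RNA-binding proteins of animals that carry RNA recognition motifs (RRMs) and bind U-rich and AU-rich stretches of RNA. In stressed mammalian cells they help to assemble stress granules, cytoplasmic condensates that hold mRNAs whose translation has stopped, and they also act in splicing and in translational repression. In *C. elegans*, TIAR-1 is needed for full fertility, promotes germ cell death and takes part in stress granules of the gonad, and TIAR-2 restrains the regrowth of cut axons.

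*tiar-1* (C18A3.5) lies on chromosome II from 5712338 to 5714823 of the WBcel235 annotation, on the minus strand, with 3 annotated transcripts of 5 to 7 exons. *tiar-2* (Y46G5A.13) lies on the same chromosome from 12768686 to 12774414, on the plus strand, with 1 transcript of 7 exons. *tiar-3* (C07A4.1) lies on chromosome X from 10167305 to 10171693, on the plus strand, with 1 transcript of 10 exons. The WBcel235 annotation calls this gene *rnp-9*, a name given to RRM genes, so its place in the family rests on the name in the deposited table. All 3 are protein-coding, with a longest coding sequence of 1224 bp in *tiar-1*, 1302 bp in *tiar-2* and 936 bp in *tiar-3*. The deposited values were made on the ce10 build, and these positions serve only to place the genes. No other annotated gene overlaps *tiar-2* or *tiar-3*, and *osta-2* on the opposite strand shares 14 bp of exon with *tiar-1*.

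The libraries held from 20662429 to 26017429 reads on genes, and values are given in fpm, reads scaled by size factors to a common library size. Of all genes, 12734 had a mean of at least 1 fpm and were tested with limma, and 1054 of them (8.28%) were called, 687 higher and 367 lower, at 1.5-fold or more and an adjusted *P*-value below 0.05. Scaling by total reads moved these counts to 421 and 409, and edgeR moved them to 403 and 343. These *P*-values measure the spread between these libraries only. Counts of genes at an unadjusted *P*-value below 0.05, given below for lists and neighbours, carry no fold limit. Their share over all genes was not counted. Wild-type libraries A and B held 73.5 and 92.9 fpm of *meg-1* and 19.6 and 26.0 fpm of *meg-2*, and mutant libraries A and B held 0.841 and 0.896 fpm of *meg-1* and 6.24 and 8.56 fpm of *meg-2*. Both targeted genes thus followed their labels. All 8 maternal markers of early embryos were tested, whereas the 6 sperm markers summed to between 0.652 and 1.89 fpm and the 4 yolk protein transcripts of the adult intestine to between 0.609 and 1.34 fpm. The 6 markers each of muscle, epidermis, neurons and intestine were also all tested. In wild type the muscle markers summed to 2490 and 1623 fpm, and the maternal markers to 887 and 1090 fpm. Transcripts of differentiated tissues were thus present beside the maternal ones. These sums are not scaled by gene length, which is 5910 bp for *myo-3* and 5892 bp for *unc-54*, against 795 bp for *pos-1* and 1056 bp for *spn-4*. They therefore do not show which transcripts were more abundant.

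*tiar-2* stood at 51.8 fpm in library A and 62.0 fpm in library B of wild type, and at 10.9 fpm and 11.8 fpm in the mutant libraries. The higher mutant library was thus far below the lower wild-type library. The reads behind these values were 1361 and 1616 in wild type and 246 and 237 in the mutant. The means were 56.9±7.21 fpm for wild type and 11.3±0.646 fpm for the mutant (mean±s.d., *n*=2 each), so that 19.9% of the wild-type mean remained, a 5.01-fold lower level. Over the 4 pairs of a wild-type and a mutant library, the ratio of wild type to mutant ranged from 4.39 to 5.69. On the log2(fpm + 0.5) scale the difference was −2.27 (limma standard error 0.16). Standard errors here and below come from limma and rest mostly on spread shared across genes. Only *meg-1* and *srw-85* had a lower log2 difference among the 12734 genes tested. *tiar-2* was chosen by this fall, so its place among the genes is a description only. What remained of *tiar-2* was well above the limit that a count of 0 allows, 0.133 and 0.149 fpm in the mutant libraries. In whole-embryo RNA, less RNA per cell and fewer cells with the transcript cannot be told apart.

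*tiar-1* stood at 264 fpm in library A and 311 fpm in library B of wild type, and at 315 fpm and 328 fpm in the mutant libraries. The genotypes did not overlap, but wild-type library B and mutant library A lay close together. The means were 287±33.0 fpm for wild type and 321±9.03 fpm for the mutant (mean±s.d., *n*=2 each). The log2 difference was 0.17 (standard error 0.12), and it depended on the wild-type libraries, being 0.05 without library A and 0.28 without library B. The ratio of mutant to wild type ranged from 1.01 to 1.24 over the 4 pairs.

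*tiar-3* stood at 4.11 fpm in library A and 3.03 fpm in library B of wild type, and at 2.65 fpm and 2.69 fpm in the mutant libraries. Both mutant libraries were below both wild-type libraries, and wild-type library B was nearer to the mutant than to wild-type library A. These values rest on 108 and 79 reads in wild type and on 60 and 54 reads in the mutant. The exact Poisson 95% interval of the 79 reads, 62.5 to 98.5, overlaps that of the 60 reads, 45.8 to 77.2, and both cover counting error only. The means were 3.57±0.763 fpm for wild type and 2.67±0.0236 fpm for the mutant (mean±s.d., *n*=2 each). The log2 difference was −0.35 (standard error 0.23), with −0.15 when wild-type library A was left out and −0.54 when library B was.

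For none of the 3 genes did the libraries of the genotypes overlap, with *tiar-1* above wild type in the mutant and *tiar-2* and *tiar-3* below it. Among all genes tested, 65.5% did not overlap between genotypes, 35.4% with the mutant above and 30.1% with the mutant below. The log2 difference of wild-type library B from library A was 0.23 for *tiar-1*, 0.26 for *tiar-2* and −0.38 for *tiar-3*, beside a median of 0.10 and an SD of 0.33 over all genes tested. Between the mutant libraries it was 0.06, 0.11 and 0.02, beside an SD of 0.17. The difference of *tiar-2* between genotypes was thus several times larger than its difference within either genotype, which does not hold for *tiar-1* and *tiar-3*. The family was chosen by this difference of *tiar-2*, so the comparison is a description only.

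**Figure D1:**
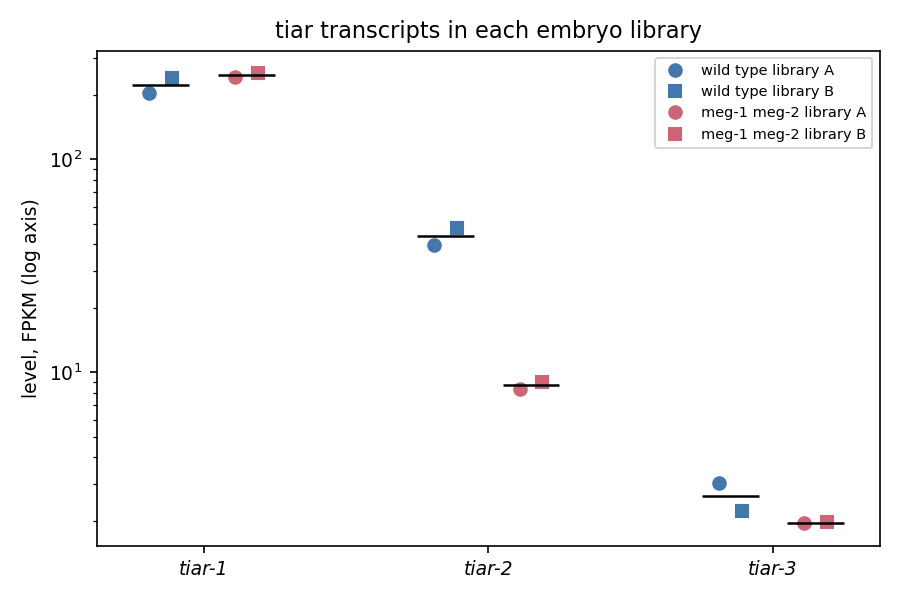
Level of each *tiar* transcript in FPKM (log axis, length as in the deposited table), with blue for wild type, red for *meg-1 meg-2*, circles for library A, squares for library B and lines for the mean of 2 libraries. *tiar-1* lies between 204 and 254 FPKM, *tiar-2* goes from 39.7 and 47.5 FPKM in wild type to 8.34 and 9.04 FPKM, and *tiar-3* lies between 1.96 and 3.04 FPKM.

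Levels were compared between the 3 genes per kb of gene length, in FPKM. In wild type, *tiar-1* had 204 and 240 FPKM, *tiar-2* had 39.7 and 47.5 FPKM and *tiar-3* had 3.04 and 2.24 FPKM. The order was the same in the mutant, where *tiar-1* had 244 and 254 FPKM, *tiar-2* had 8.34 and 9.04 FPKM and *tiar-3* had 1.96 and 1.99 FPKM. No neighbours in this order came within the spread between libraries. Among the 12111 protein-coding genes tested, the FPKM of *tiar-1* ranked 404 in wild type and 415 in the mutant, counted from the highest. *tiar-2* moved from rank 3644 to rank 8110, that is from above 69.9% of these genes to above 33.0%. *tiar-3* ranked 10613 and 10912, near the bottom of the genes tested.

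The lengths in the deposited table are 1292 bp for *tiar-1*, 1305 bp for *tiar-2* and 1353 bp for *tiar-3*, whereas the annotated exons of WBcel235 cover 1811, 2553 and 1466 bp. For *tiar-2* the table's length is close to the coding sequence alone. With the annotated exons as length, an alternative chosen after seeing the data, the mean of *tiar-2* was 22.3±2.82 FPKM for wild type and 4.44±0.253 FPKM for the mutant (mean±s.d., *n*=2 each). The level of *tiar-2* relative to the other genes therefore depended on the gene model, and the order of the 3 genes did not.

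The ratio of *tiar-2* to *tiar-1* within a library does not depend on how libraries are scaled. In FPKM with the table's lengths, *tiar-2* was at 19.4% and 19.8% of *tiar-1* in wild type, against 3.42% and 3.56% in the mutant. The values within a genotype were close, and the means differed 5.61-fold between genotypes. This ratio includes the fall by which *tiar-2* was chosen, so it is a description only. Relative to *tiar-1*, *tiar-3* was at 1.49% and 0.932% in wild type, against 0.805% and 0.783% in the mutant.

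*tiar-2* made up 16.1% and 16.4% of the summed FPKM of the 3 genes in wild type, against 3.28% and 3.42% in the mutant. *tiar-1* made up 82.7% and 82.9% in wild type and 95.9% and 95.8% in the mutant, so it was the main *tiar* transcript of the embryo in both genotypes. The summed level of the 3 genes was 247 and 290 FPKM in wild type, and the mutant sums of 254 and 265 FPKM lay between these values.

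**Figure D2:**
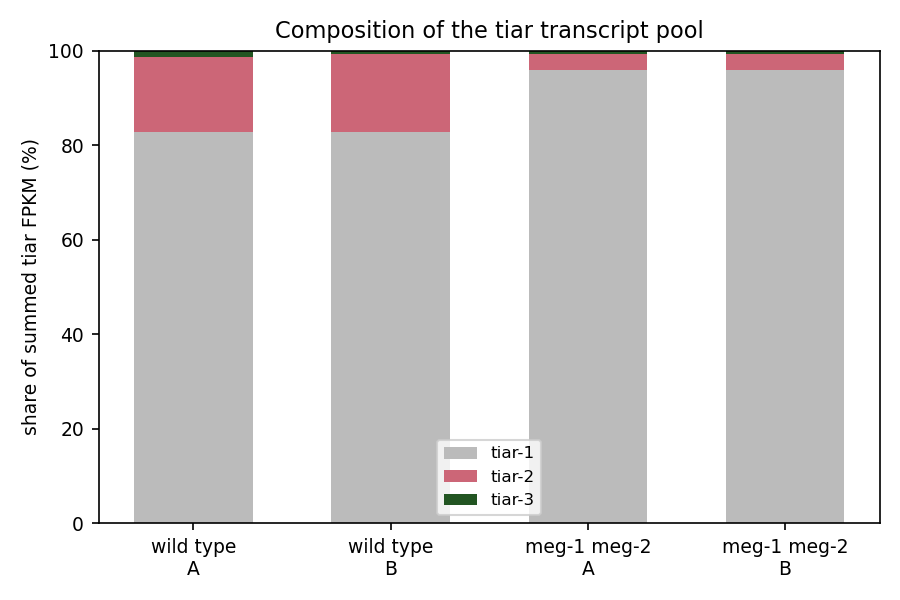
Share of each gene in the summed FPKM of the 3 *tiar* genes (%, stacked bars, 1 bar per library). The *tiar-2* part shrinks from 16.1% and 16.4% in wild type to 3.28% and 3.42% in *meg-1 meg-2*.

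The genes beside each *tiar* gene were examined for a difference that is shared along the chromosome. Around *tiar-2*, the 3 closest protein-coding genes to each side that were tested, whose starts lie within 17636 bp of its own, had log2 differences from 0.04 to 0.37. Of these 6 genes, limma called 0 higher and 0 lower, 1 had an unadjusted *P*-value below 0.05, and edgeR and DESeq2 also called 0. For comparison with these calls, 5.4% of all genes tested were called higher and 2.88% lower. The share of all genes at an unadjusted *P*-value below 0.05 was not counted. *vps-2*, which encodes a subunit of the ESCRT-III complex of membrane sorting, lies 469 bp before *tiar-2*, and its levels were 56.3 and 61.2 fpm for wild type and 71.3 and 65.0 fpm for the mutant (log2 difference 0.21, standard error 0.14, limma adjusted *P*=0.257). On the other side, *Y46G5A.14* had from 1 to 4 reads per library and was not tested.

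Of the 6 genes around *tiar-1*, limma called 0, 2 had an unadjusted *P*-value below 0.05, and edgeR and DESeq2 called 0. *osta-2*, a homolog of an organic solute transporter subunit and the gene that shares 14 bp with *tiar-1*, had 22.8 and 18.9 fpm in wild type against 14.5 and 16.5 fpm in the mutant (log2 difference −0.42, limma adjusted *P*=0.0701). Of the 6 genes around *tiar-3*, limma called 0, 3 had an unadjusted *P*-value below 0.05, and edgeR and DESeq2 called 0. The 3 below that cutoff were the genes downstream of *tiar-3*, with log2 differences from −0.53 to −0.44. Among all genes tested, limma called 8.28%, and the share at the unadjusted cutoff was not counted. These 3 genes are therefore given as a description only. One of them, *F21A10.2*, singled out after its value was seen, had a limma adjusted *P*-value of 0.00655 but a difference under 1.5-fold. Without wild-type library B, 1 neighbour of *tiar-1* was called higher and 1 neighbour of *tiar-3* lower, and the neighbours of *tiar-2* still gave 0 calls.

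**Figure D3:**
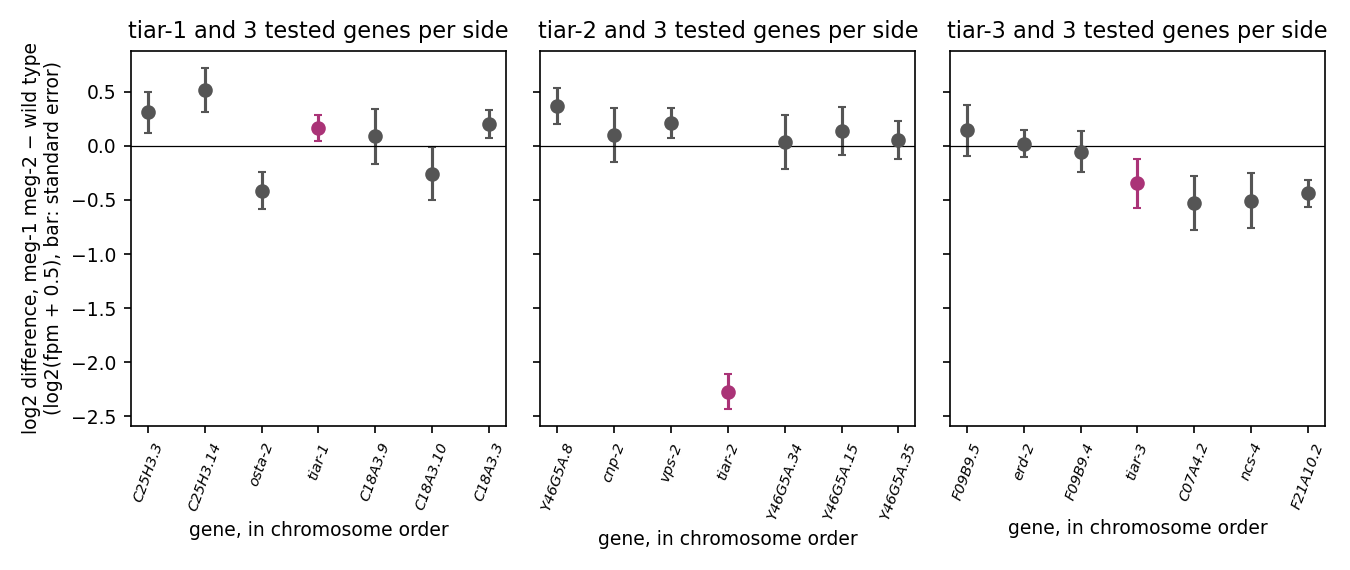
Log2 difference between *meg-1 meg-2* and wild type (log2(fpm + 0.5), bars show the limma standard error) for each *tiar* gene, in purple, and for its 3 closest tested protein-coding genes to either side, in grey and in chromosome order. *tiar-2* stands at −2.27 while its 6 neighbours lie between 0.04 and 0.37.

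The genes most like each *tiar* gene over the 4 libraries were found by the distance between centred log2 profiles, among protein-coding genes with a mean level between 0.5 and 2 times its own. For *tiar-2* the closest of 3699 candidates was *haf-6*, an ABC transporter gene, at a distance of 0.92. *haf-6* had 25.6 and 26.96 fpm in wild type against 8.98 and 10.9 fpm in the mutant, so its difference was smaller than that of *tiar-2*. *Y65B4BL.1* and *blmp-1*, which encodes a zinc finger transcription factor, followed at distances of 1.32 and 1.34, and the median candidate was at 2.38. For *tiar-1* the closest of 1183 candidates were *dao-5*, *ddx-15* and *cids-2*, at distances of 0.0062 to 0.025, and for *tiar-3* the closest of 2388 were *npr-23*, *ZK792.4* and *ZK813.4*, at 0.011 to 0.035. These distances include the difference between genotypes by which *tiar-2* was chosen, so its larger distances are a description only.

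Other proteins of stress granules were examined as a list of 16 genes, of which 15 were found and tested. Limma called 2 of the 15 higher and 0 lower, beside 5.4% and 2.88% of all genes tested, and the median log2 difference was 0.05, beside 0.01 over all genes. At an unadjusted *P*-value below 0.05, 3 were higher and 3 lower, and the share of all genes at that cutoff was not counted. edgeR called 1 higher and DESeq2 called 2 higher, and both called 0 lower. The called genes were *cey-2* and *cey-3*, which encode Y-box proteins that bind mRNA in the germ line. *cey-2* had 151 and 212 fpm in wild type against 302 and 315 fpm in the mutant (log2 difference 0.79, limma adjusted *P*=7.46e-07, between 2.12e-10 and 0.244 over the alternatives). *cey-3* had 102 and 134 fpm in wild type against 174 and 183 fpm in the mutant (log2 difference 0.61, limma adjusted *P*=1.69e-04, between 4.24e-09 and 0.574 over the alternatives). When wild-type library A or either mutant library was left out, 0 of the 15 were called. Of the 14 alternatives, *cey-2* was called in 9 and *cey-3* in 5.

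The 4 genes with the highest levels in this list did not pass the test. *pab-1*, the poly-A binding protein, had a mean of 1697±124 fpm in wild type against 1825±60.0 fpm in the mutant, and the UBAP2L homolog *pqn-59* had 715±82.5 against 783±40.7 fpm (mean±s.d., *n*=2 each). The hnRNP A homolog *hrp-1* had 544±39.5 against 576±1.26 fpm, and the Y-box gene *cey-4* had 474±47.7 against 545±28.3 fpm. The lowest log2 difference among the 15, −0.46, was that of the ataxin-2 gene *atx-2*, singled out after its value was seen, with a limma adjusted *P*-value of 0.00382 and a difference under 1.5-fold.

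Stress granules can form when phosphorylation of the initiation factor eIF2 stops translation. A list of 7 genes tied to this step included eIF2 subunits and the eIF2 kinases *gcn-2* and *pek-1*. Limma called 0 of them higher and 0 lower, 3 had an unadjusted *P*-value below 0.05, and edgeR and DESeq2 called 0. Beside 8.28% called among all genes tested, 0 of 7 does not set these genes apart. For the unadjusted cutoff the share over all genes was not counted. Their median log2 difference was 0.10, beside 0.01 over all genes. *gcn-2* had a mean of 179±15.1 fpm in wild type against 192±2.00 fpm in the mutant, and *pek-1* had 192±6.78 against 199±2.93 fpm (mean±s.d., *n*=2 each). *gcn-1*, which activates the GCN2 kinase in yeast, had 246±2.83 against 230±5.04 fpm, and the eIF2 gamma subunit *Y39G10AR.8* had 216±24.4 against 265±2.38 fpm.

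Of 14 other genes of RRM proteins, limma called 1 higher and 1 lower, beside 5.4% and 2.88% of all genes tested, and the median log2 difference was −0.14, beside 0.01 over all genes. edgeR called 0 higher and 2 lower, DESeq2 called 0 higher and 1 lower, and at an unadjusted *P*-value below 0.05, 2 were higher and 4 lower. *spn-4*, a regulator of maternal mRNAs that is also among the maternal markers, had 177 and 232 fpm in wild type against 309 and 301 fpm in the mutant (log2 difference 0.59, limma adjusted *P*=1.70e-04, between 2.52e-09 and 0.553 over the alternatives). *sym-2*, an hnRNP F and H homolog, had 75.4 and 76.4 fpm in wild type against 47.9 and 49.0 fpm in the mutant (log2 difference −0.64, limma adjusted *P*=2.31e-04, between 4.05e-07 and 0.553 over the alternatives). *spn-4* was not called without wild-type library A, 3 of the 14 were called lower without wild-type library B, and 0 were called with either mutant library left out. Of the 14 alternatives, *spn-4* was called in 4 and *sym-2* in 11, and scaling by total reads, quantile normalization, log2(FPKM + 2), limma without a trend and no filter on low values also left *spn-4* uncalled. The other genes of this list with the highest levels did not pass the test, with means of 808±78.4 against 864±11.3 fpm for *hrp-2*, 313±18.5 against 278±13.2 fpm for *sqd-1* and 175±19.8 against 216±5.66 fpm for *hrpf-1* (mean±s.d., *n*=2 each, wild type first).

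**Figure D4:**
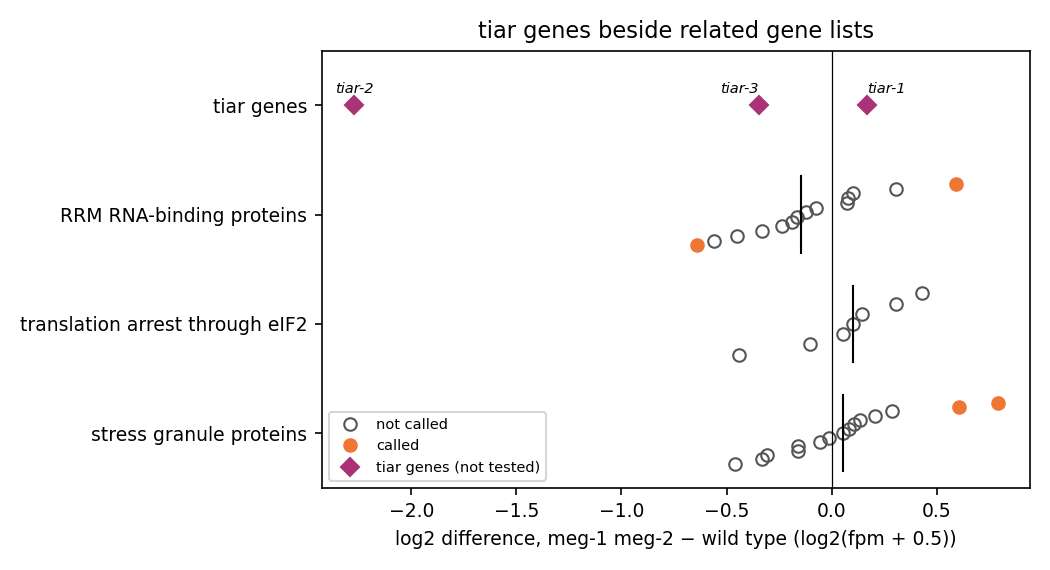
Log2 difference between *meg-1 meg-2* and wild type (log2(fpm + 0.5)) of the *tiar* genes, as purple diamonds, and of each tested gene of 3 related lists, as circles filled where limma called the gene, with a line at the list median. *tiar-2* at −2.27 lies below every gene of the lists, whose values run from −0.64 to 0.79, and *tiar-1* and *tiar-3* lie inside that range.

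Markers of tissues also differed between the collections. Their calls are to be read beside the 5.4% of all genes tested that were called higher and the 2.88% called lower. Those shares do not apply to the counts at an unadjusted *P*-value below 0.05, whose share over all genes was not counted. The 6 muscle markers summed to 2490 and 1623 fpm in wild type against 1348 and 1383 fpm in the mutant, and 2 of them were called lower. Of the 6, 5 had a log2 difference below 0, and *hlh-1* had 0.06. At an unadjusted limma *P*-value below 0.05, 4 muscle markers were lower and 0 higher. The 6 epidermal markers summed to 2403 and 2043 against 1645 and 1774 fpm, and 1 was called lower. Most of this sum was *sqt-3*, with 1895 and 1532 against 1211 and 1312 fpm. Of the 6, 4 had a log2 difference below 0, and *elt-1* had 0.19 and *lin-26* 0.03. At an unadjusted limma *P*-value below 0.05, 4 epidermal markers were lower and 0 higher. The 8 maternal markers summed to 887 and 1090 against 1350 and 1349 fpm, and limma called 2 higher whereas edgeR called 0. At an unadjusted limma *P*-value below 0.05, 7 of the 8 were higher and 0 lower. The 6 neuronal markers summed to 187 and 162 against 161 and 159 fpm, limma, edgeR and DESeq2 called 0, and 1 had an unadjusted *P*-value below 0.05. The 6 intestinal markers summed to 243 and 201 against 191 and 194 fpm, and 2 were called higher, *end-1* and *end-3*, which specify the endoderm. Most of this sum was *ifb-2*, with 173 and 120 against 112 and 107 fpm. Of the 6, 3 had a log2 difference above 0 and 3 below. At an unadjusted limma *P*-value below 0.05, 3 intestinal markers were higher and 1 lower. Without wild-type library B the muscle markers gave 4 lower and the maternal markers 5 higher, without wild-type library A they gave 1 and 0, and with either mutant library left out each of these lists gave 0 calls. In each of these sums wild-type library B lay between wild-type library A and the mutant libraries. *tiar-1* and *tiar-3* had the same order, while *tiar-2* was higher in wild-type library B than in library A, away from the mutant. The part of the makeup of the collections in the *tiar* values was not tested.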

How the data were processed

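RNA of whole embryos was sequenced from 2 wild-type and 2 *meg-1 meg-2* libraries. The authors aligned reads to ce10 with HISAT2, counted them per gene with HTSeq-count and used DESeq2. Versions, annotation release and strand setting are not given in the sources used here. The signal the authors deposited is, for each genotype, the mean fpm of 2 libraries (reads divided by size factors and a common library size), and the same mean divided by the gene length in bp. The authors also deposited their own log2 fold change and adjusted p-value, which were not used. The table has 0 further columns of values per sample.

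Reads per library were recovered from the means. Each mean is the sum of 2 whole read numbers, each times the fpm that 1 read of its library is worth, averaged over both libraries. Within a relative rounding of 8e-15, 1 pair matched for 42048 wild-type and 42047 *meg-1 meg-2* means, and the remaining gene was settled by the definition of the size factors. Recovered size factors and library sizes gave back all steps within a relative 6.66e-16. The libraries are called A (smaller fpm per read) and B, because a mean keeps no replicate number. Depth was 24894414, 26017429, 22816733 and 20662429 reads (wild type A and B, *meg-1 meg-2* A and B). A count of 0 allows up to 3 reads, or 0.114 to 0.149 fpm, and such limits cover counting error only.

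Genes with a mean of at least 1 fpm were tested with limma 3.58.1 (R 4.3.3, lmFit and eBayes with trend) on log2(fpm + 0.5), two-sided, with Benjamini-Hochberg adjustment over 12734 genes. Fold changes are on that scale, which understates those of low genes. The trend gave 134 prior degrees of freedom, so these p-values rest on spread shared across genes. edgeR 4.0.16 and DESeq2 1.42.0 on the recovered reads were alternatives. For simulated reads of 12734 genes with 200 changed 2-fold, limma recovered 85.0% with 1 false call. Both values hold for the spread that was simulated and give no error rate for the real libraries. There, log2 differences of library B from A had an SD of 0.33 in wild type, against 0.17 in the mutant. FPKM here is fpm per kb of the deposited length. Members were matched by name in the table, and positions come from WBcel235, which holds 41759 of the 42048 identifiers. The genes named are the members, the targeted genes, of each list the called genes and up to 4 with the highest level, adjoining genes, and the 3 genes most like each member. The members and lists were chosen with earlier results of these data known. The list gene *sup-46* was not matched.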

Additional observations from a re-analysis of the deposited data

How the results depend on the processing

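No paired analysis was possible because a mean over both libraries of a genotype keeps no replicate numbers. The direction of all 3 *tiar* genes was kept under every alternative run. On log2(FPKM + 2) the difference of *tiar-2* was −2.09, outside its spread between replicates, and its other values lay within that spread. Leaving out each library in turn gave between 27 and 1338 genes called higher and between 14 and 1291 lower, against 687 and 367 with all libraries, the highest without wild-type library B and the lowest without a *meg-1 meg-2* library. Scaling by total reads without size factors gave 421 higher, edgeR 403 higher and DESeq2 224 lower. A pseudocount of 2 fpm gave 145 lower, a minimum of 5 fpm 212 lower, log2(FPKM + 2) 256 higher and 165 lower, and no filter on low values 3 higher and 1 lower. Without a filter 28209 genes were tested, and *tiar-3* is below the minimum of 5 fpm. With 1 library of a genotype left out, the lone library is assumed to vary like the other genotype. The cause of these moves was not tested. Of 420 counts for lists and neighbours under the alternatives, 358 were within 1.5 times the main count. Depth limits *tiar-3* most, with 301 reads over the 4 libraries.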
